A study of Mus musculus with 4 samples.

Results

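The 10 genes followed here, Ebf1, Pax5, Tcf3, Ikzf1, Ikzf3, Foxo1, Tcf7, Gata3, Bcl11b and Lef1, encode regulators of B and T lineage commitment. They were chosen by symbol, with earlier results of these data known, and were found once each among the 28987 genes of the deposited table. Their transcript levels were compared between c-Kit-selected bone marrow libraries labelled Hif1a-intact and Hif1a-null. RNA sequencing was done on c-Kit-positive (CD117 bead-selected) bone marrow cells of C57BL/6 mice. c-Kit is a receptor of stem and progenitor cells. All 4 libraries carried 1 Mll allele with a partial tandem duplication (MllPTD/WT), which is a leukaemia-associated rearrangement, and a floxed Runx1 gene on both alleles together with Mx1-Cre, a recombinase driven by an interferon-inducible promoter that is active well beyond stem cells. In 2 libraries Hif1a was not floxed (Hif1a-intact), and in the other 2 it was floxed on both alleles (Hif1a-null in the sample titles). Hif1a encodes HIF-1 alpha, the part of the HIF-1 factor that is degraded when oxygen is plentiful. The labels give no age and do not tie each library to a mouse of its own. The p-values therefore rest on a spread between 2 libraries per group that may be technical.

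Lymphoid cells form in steps that are set by a small group of transcription factors. The Ikaros proteins (Ikzf1, Ikzf3) and the E protein E2A (Tcf3) act from the earliest lymphoid progenitors onward. Ebf1, Foxo1 and Pax5 then install the B cell programme, with Pax5 fixing commitment, while Tcf7 (TCF-1), Gata3 and Bcl11b act in this order downstream of Notch in the T lineage and Lef1 is a close relative of Tcf7. Tcf7, Lef1 and Gata3 also serve NK and other innate lymphoid cells, so none of these genes marks a single cell type. In bulk RNA, a change in the number of cells of a type and a change in RNA per cell cannot be told apart.

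HIF-1 binds DNA at a short core, ACGTG or GCGTG, and since the comparison is about Hif1a, upstream windows of 3 of the factors are shown to let a reader see where that core occurs. They are the bases before the most upstream RefSeq start of each gene (up to 250, cut where an annotated exon of the gene begins), on the gene's strand, with HIF cores of either strand in capitals. Lef1 was chosen as a factor called higher, Pax5 as one almost absent from one group, and Tcf3 as one whose groups overlapped.
Lef1, GRCm38.p6 chr3:131110047-131110296, plus strand: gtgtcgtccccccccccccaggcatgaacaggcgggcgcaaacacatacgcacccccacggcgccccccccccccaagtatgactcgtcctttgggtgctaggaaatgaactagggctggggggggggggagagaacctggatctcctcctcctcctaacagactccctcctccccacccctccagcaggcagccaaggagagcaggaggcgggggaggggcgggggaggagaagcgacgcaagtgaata
Pax5, GRCm38.p6 chr4:44710695-44710944, minus strand: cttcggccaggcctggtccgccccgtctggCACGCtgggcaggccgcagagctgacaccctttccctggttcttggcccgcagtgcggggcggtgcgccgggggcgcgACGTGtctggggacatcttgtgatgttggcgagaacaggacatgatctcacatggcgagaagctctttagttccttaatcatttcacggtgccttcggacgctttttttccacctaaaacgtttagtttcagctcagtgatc
Tcf3, GRCm38.p6 chr10:80433648-80433885, minus strand: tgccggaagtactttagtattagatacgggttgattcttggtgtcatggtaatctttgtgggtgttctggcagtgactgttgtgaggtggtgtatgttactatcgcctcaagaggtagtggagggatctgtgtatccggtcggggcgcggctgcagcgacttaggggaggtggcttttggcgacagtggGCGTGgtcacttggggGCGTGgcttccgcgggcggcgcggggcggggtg
The Pax5 window held cores 220 and 142 bases before the start, the Tcf3 window 61 and 45 bases before it, and the printed Lef1 window none. RefSeq gave 15 windows for 9 of the 10 factors. A HIF core stood in 5 of these windows, of Foxo1, Pax5, Tcf3, and Ebf1 and Lef1 (both at another start), against 38.6% of 32851 RefSeq windows of the same length. The core of RUNX sites, TGTGGT, stood in 1 of the 15, of Ebf1, against 14.0% of all, and the TCF/LEF core CTTTGA in 2, of Lef1 and Bcl11b, against 13.8%. Both strands were read, and a HIF core can lie within an E-box (CANNTG), which stood in 9 of the 15 windows against 66.2% of all. A match is a description of letters and was not tested as a binding site.

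The deposited values are TPM, transcript levels scaled by length and by library total, so genes can be set side by side, but the depth is unknown. Kit itself read 102 to 128 TPM and Cd34 179 to 251 TPM. The granulocyte gene Camp read 8917 to 11693 TPM. What share of the RNA stem and progenitor cells gave was not measured. Hif1a read 100.3 and 75.2 TPM in the Hif1a-intact pair and 98.8 and 113 TPM in the libraries labelled Hif1a-null (limma, adjusted p = 0.479). A gene-level value includes exons outside a floxed part and checks no deletion, so directions below rest on the labels. Runx1, which should be deleted in both groups, read 73.6 and 76.6 against 48.4 and 46.7 TPM (limma, adjusted p = 0.0636). Its groups did not overlap, so over these 4 libraries Runx1 level and the Hif1a label cannot be told apart.

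Tcf7, Lef1 and Ebf1 were higher in the Hif1a-null libraries, with ratios of the group means of 11.9, 12.8 and 11.2, while Ikzf1, Tcf3 and Gata3 had overlapping groups. Foxo1 had a ratio of 2.31 but missed the threshold, and Pax5, Ikzf3 and Bcl11b stayed low in every library, with the Hif1a-null libraries above the others. No factor was called lower.

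**Figure D1:**
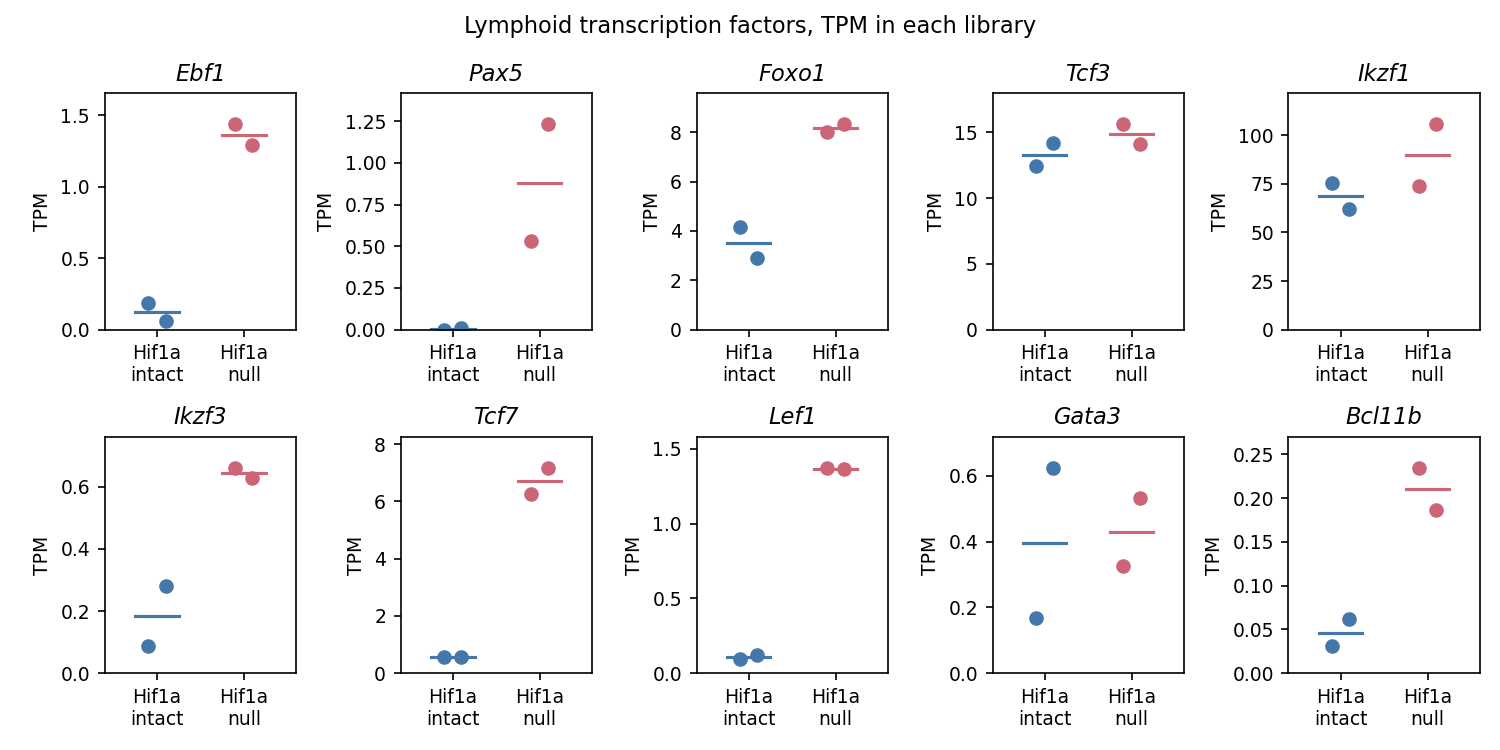
TPM of each of the 10 factors in each library (points) with the group mean (line), on a linear axis from 0 that differs between panels. The Hif1a-null points lie above both Hif1a-intact points in 7 panels, and overlap them for Tcf3, Ikzf1 and Gata3.

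Among the B lineage factors, Ebf1 (ENSMUSG00000057098, GRCm38 chromosome 11, 44617317 to 45008091, plus strand), the early B cell factor that opens B lineage genes, read 0.185 and 0.0573 TPM in the Hif1a-intact pair and 1.44 and 1.29 TPM in the Hif1a-null pair. Both Hif1a-null libraries were high and the groups did not overlap. On the log2(TPM + 1) scale Ebf1 was higher by 1.08 (standard error 0.14, limma, adjusted p = 0.0267). Its call was lost in limma without Hif1a-intact replicate 2 (0.99, adjusted p = 0.0515) and under quantile normalization (0.62, adjusted p = 0.0733), within a range of adjusted p of 0.0150 to 0.310 over the alternatives.

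Pax5 (ENSMUSG00000014030, chromosome 4, 44524757 to 44710487, minus strand), the guardian of B cell identity, was listed at 0 and read 0.0125 TPM in the Hif1a-intact pair, against 0.532 and 1.23 TPM in the Hif1a-null pair. The groups did not overlap, but Hif1a-null replicate 2 stood well above replicate 1. Pax5 did not reach the filter of 1 TPM in 2 libraries. Fitted with all genes above 0 it was not called (limma, adjusted p = 0.177).

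Foxo1 (ENSMUSG00000044167, chromosome 3, 52268336 to 52353221, plus strand), a forkhead factor that switches on Il7r and the Rag genes, read 4.17 and 2.89 against 8.01 and 8.33 TPM. Its groups did not overlap, and the ratio of the means was 2.31. The log2 fold change of 1.03 had a 95% interval of 0.52 to 1.54 and fell just outside the threshold (limma, adjusted p = 0.0571). It passed in limma under quantile normalization (0.0413), median-ratio size factors (0.0397), protein-coding genes only (0.0463) and without Hif1a-intact replicate 1 (0.0338), out of a range of 0.0338 to 0.493. Unlike Ebf1, Foxo1 was above 1 TPM in all 4 libraries, so the filter did not fix its direction.

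The factors of the earliest lymphoid steps were the abundant ones. Ikzf1 (ENSMUSG00000018654, chromosome 11, 11685003 to 11772926, plus strand), which encodes Ikaros, read 75.3 and 61.9 TPM in the Hif1a-intact pair and 73.6 and 106 TPM in the Hif1a-null pair. Only Hif1a-null replicate 2 stood above the others, and the difference of 0.36 had a 95% interval of -0.28 to 1.004 on the log2 scale (limma, adjusted p = 0.445). Ikzf1 alone made up 68.1% to 80.9% of the summed TPM of the 10 factors in each library. Its level was at the 88.1 to 94.0 percentile of genes above 0.

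Ikzf3 (ENSMUSG00000018168, chromosome 11, 98464902 to 98546031, minus strand) encodes Aiolos, the Ikaros relative that rises as B cells mature. It read 0.0862 and 0.282 against 0.661 and 0.629 TPM. The groups did not overlap, but no library reached 1 TPM. In the fit without a filter it was not called (limma, log2 fold change 0.48, adjusted p = 0.160). Ikzf1 exceeded Ikzf3 by 873 and 220 times in the Hif1a-intact libraries and by 111 and 168 times in the Hif1a-null libraries.

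Tcf3 (ENSMUSG00000020167, chromosome 10, 80409514 to 80433647, minus strand), the E protein needed by both lineages, read 12.4 and 14.2 against 15.6 and 14.1 TPM. Its groups overlapped, and the log2 difference of 0.15 had a 95% interval of -0.24 to 0.54 (limma, adjusted p = 0.608). A doubling of Tcf3 lies outside that interval, which does not show that the groups are alike.

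Among the T lineage factors Tcf7 (ENSMUSG00000000782, chromosome 11, 52252371 to 52283014, minus strand) had the highest levels in the Hif1a-null pair. It read 0.564 and 0.566 TPM in the Hif1a-intact pair and 6.27 and 7.17 TPM in the Hif1a-null pair. The 2 groups were far apart, with a ratio of 11.1 to 12.7 over all pairs of libraries. The difference was 2.30 on the log2 scale (standard error 0.13, limma, adjusted p = 0.00655). Of 16 alternatives that tested Tcf7, 12 called it, and in the other 4, which dropped both the filter and 1 library, no gene of the table passed.

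Lef1 (ENSMUSG00000027985, chromosome 3, 131110471 to 131224356, plus strand), the other member of the TCF/LEF pair of Wnt-responsive HMG-box factors in lymphocytes, read 0.0937 and 0.120 against 1.37 and 1.36 TPM. Its groups did not overlap, and the difference was 1.10 on the log2 scale (standard error 0.12, limma, adjusted p = 0.0200). The call was lost in limma under quantile normalization (0.65, adjusted p = 0.0680, within a range of 0.00649 to 0.287). Although both genes differed between the groups, Tcf7 stood above Lef1 by a like ratio in every library. It was 6.02 and 4.72 in the Hif1a-intact and 4.57 and 5.26 in the Hif1a-null libraries.

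Gata3 (ENSMUSG00000015619, chromosome 2, 9857078 to 9890034, minus strand), which T cells, type 2 helper cells and type 2 innate lymphoid cells require, read 0.168 and 0.624 against 0.327 and 0.533 TPM. The groups overlapped fully, and the fit without a filter gave a log2 difference of 0.05 with a 95% interval of -0.60 to 0.70 (limma, adjusted p = 0.942). That difference changed sign without Hif1a-intact replicate 1 (-0.19) or Hif1a-null replicate 2 (-0.054).

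Bcl11b (ENSMUSG00000048251, chromosome 12, 107910403 to 108003602, minus strand), the factor that closes T lineage commitment, was lowest of the 4. It read 0.0310 and 0.0619 against 0.235 and 0.187 TPM. Its groups did not overlap, but it did not pass in the fit without a filter (limma, log2 fold change 0.21, adjusted p = 0.237).

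Of the 6 factors that reached the filter, 3 were called higher and 0 lower, where 5.25% and 2.02% of 11909 tested genes were. These 3, Tcf7, Lef1 and Ebf1, entered the test only through the Hif1a-null pair, since neither Hif1a-intact library reached 1 TPM, and could therefore only differ upward. Among all 536 such genes 61.8% were called higher, so calls are common in this class. Of the 3 factors with a library of each group at 1 TPM or more, limma called 0, against 2.62% higher among 11222 such genes, and 1 of them, Foxo1, had an unadjusted p under 0.05. Without Hif1a-null replicate 1, or without replicate 2, Tcf7, Lef1 and Ebf1 did not reach the filter and 0 of the 3 remaining factors were called. In these fits limma called 19 and 0 genes of the whole table, against 866 with all libraries.

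A fit over all 20081 genes above 0 in any library tests every factor. In it Tcf7, Lef1 and Ebf1 were called higher (limma, adjusted p = 0.0174, 0.0235 and 0.0423) and the other 7 were not, against 2.14% higher and 0.687% lower among all genes. All 10 differences lay above 0, with a median of 0.68 on the log2 scale against 7.6e-05 over all genes. In 7 of the 10 both Hif1a-null libraries exceeded both Hif1a-intact ones, against 23.6% of all genes, and in 0 of the 10 were both below, against 23.1%. Ebf1, Pax5, Ikzf3, Tcf7, Lef1, Gata3 and Bcl11b were below 1 TPM in both Hif1a-intact libraries, which left little room to lie lower. The values over all genes are not matched for level, so these counts and the median say little about the set. With a pseudocount of 0.1 in that fit, the log2 fold changes became 3.36 for Tcf7, 2.83 for Lef1 and 2.78 for Ebf1, and the last was no longer called (limma, adjusted p = 0.0745). For such low genes the size on the log2 scale is thus set largely by the pseudocount.

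**Figure D2:**
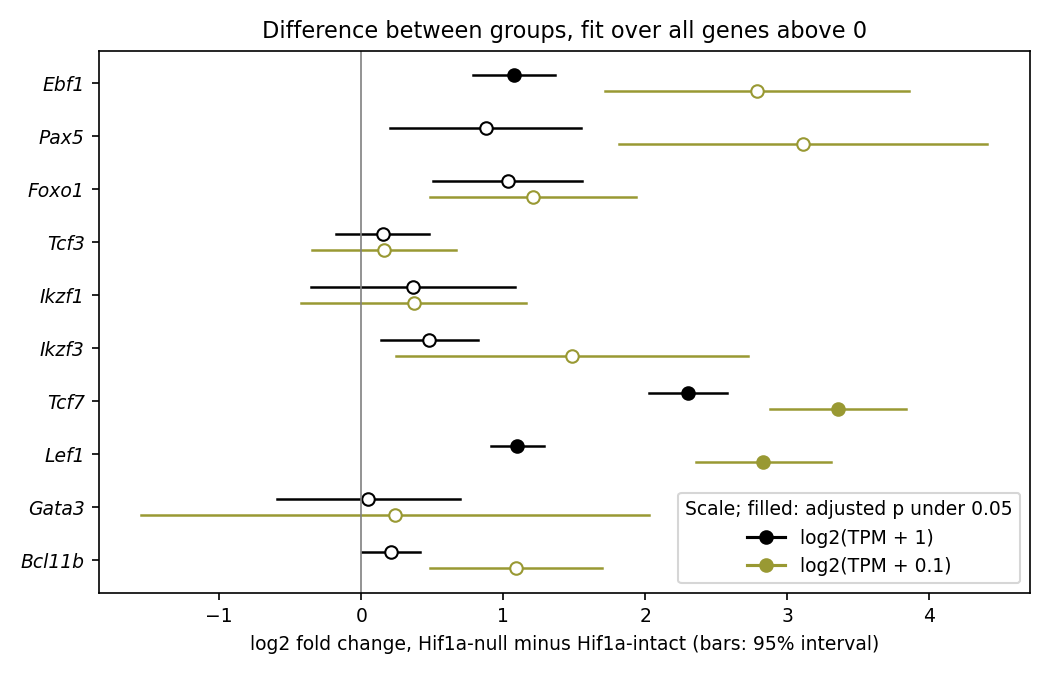
Log2 fold change of each factor (Hif1a-null minus Hif1a-intact, horizontal axis) with its 95% interval, from limma over all genes above 0, at a pseudocount of 1 (black) and 0.1 (olive); filled points have an adjusted p under 0.05. Tcf7 and Lef1 are filled on both scales and Ebf1 at a pseudocount of 1 alone.

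The order of the levels was alike at the top and changed at the bottom. In both groups Ikzf1, Tcf3, Foxo1 and Tcf7 led in this order, and none of these 4 overlapped the next of them in either group. In the Hif1a-intact group Tcf7, Gata3, Ikzf3 and Ebf1 each overlapped the next in the order, down to Lef1. In the Hif1a-null group Tcf7 stood clear of Lef1 by 4.90 TPM, Lef1 and Ebf1 overlapped, and so did Pax5 and Ikzf3. Gata3 went from place 5 to place 9. Leaving out Ikzf1 and Tcf3, the other 8 factors summed to 5.30 and 4.62 TPM in the Hif1a-intact pair and 18.9 and 20.7 TPM in the Hif1a-null pair.

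E proteins work as dimers with each other and are held back by Id proteins, so their partners were read with Tcf3. Tcf4 (E2-2), a regulator of plasmacytoid dendritic and B cells, read 20.1 and 17.8 against 33.1 and 30.4 TPM, with no overlap, and missed the threshold (limma, log2 fold change 0.72, adjusted p = 0.0674). It passed in limma under quantile normalization (0.0488) and median-ratio size factors (0.0437), within a range of 0.0437 to 0.630. Tcf12 (HEB) read 15.7 and 13.1 against 13.7 and 14.1 TPM, with overlapping groups.

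Among the inhibitors, Id2 read 51.2 and 69.0 against 56.1 and 55.6 TPM and Id1 17.3 and 34.4 against 18.6 and 19.9 TPM, again with overlap. Id3 read 1.05 and 0.830 against 4.55 and 2.73 TPM, without overlap, but was not called (limma, adjusted p = 0.0645; 0.0436 with protein-coding genes only). The sum of the 3 E protein genes divided by that of the 3 Id genes was 0.693 and 0.432 in the Hif1a-intact and 0.788 and 0.749 in the Hif1a-null libraries. The low value is that of Hif1a-intact replicate 2, which has the highest Id1 and Id2.

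A list of 38 other lymphoid regulators, of which 30 were tested, had 4 members called higher and 2 lower, where 5.25% and 2.02% of all tested genes were. The 4 higher ones stayed below 1 TPM in the Hif1a-intact pair, a class in which 61.8% of all genes were called higher. Over all 38 the median log2 difference in the fit without a filter was 0.09, and in that fit 2 were called higher and 2 lower, against 2.14% and 0.687% of all genes. The 4 called higher in the filtered fit could not reach the filter without Hif1a-null replicate 1 or without replicate 2. Those fits did not test them. Irf4, which drives light chain rearrangement and plasma cell fate, read 0.297 and 0.440 against 2.77 and 2.85 TPM (limma, adjusted p = 0.0127). Pou2af1 (OCA-B, a B cell coactivator) read 0.428 and 0.153 against 2.60 and 4.01 TPM (limma, adjusted p = 0.0290, 0.0164 to 0.326 over the alternatives).

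Eomes, a T-box factor of NK cells, read 0.0536 and 0.0443 against 1.44 and 1.21 TPM (limma, adjusted p = 0.0213). The other one, Spib, an ETS factor of B and plasmacytoid dendritic cells, was named after its values were seen. It read 0.598 and 0.594 against 2.37 and 1.80 TPM (limma, adjusted p = 0.0434) and kept its call in 5 of 16 alternatives.

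Zbtb16 (PLZF), the factor of innate-like T cells and innate lymphoid precursors, fell from 2.54 and 2.61 to 0.589 and 0.419 TPM (limma, log2 fold change -1.25, adjusted p = 0.0183). Neither Hif1a-null library reached 1 TPM, so Zbtb16 entered the test only through the Hif1a-intact pair and could only differ downward. The share called lower among all such genes was not counted. Sox4, which early B and T progenitors need, was likewise named after its values were seen. It fell from 52.3 TPM in both Hif1a-intact libraries to 30.5 and 30.1 TPM (limma, log2 fold change -0.77, adjusted p = 0.0420) and kept its call in 5 of 19 alternatives.

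Among 8 genes of the Notch pathway and the T lineage, 5 were tested (Notch1, Hes1, Satb1, Runx3 and Zbtb7b, given here after their values were seen) and limma called 0, with 0 at an unadjusted p under 0.05. Of these, Notch1 and Runx3 split the Hif1a-null pair in opposite ways. Notch1 read 50.01 TPM in Hif1a-null replicate 1 and 13.7 TPM in replicate 2, against 16.7 and 29.5 TPM in the Hif1a-intact pair, and Runx3 read 10.1 and 35.0 TPM against 15.2 and 12.2 TPM. The difference of Notch1 changes sign without Hif1a-null replicate 1 (-0.66) or Hif1a-intact replicate 1 (-0.16), and that of Runx3 without Hif1a-null replicate 2 (-0.40).

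**Figure D3:**
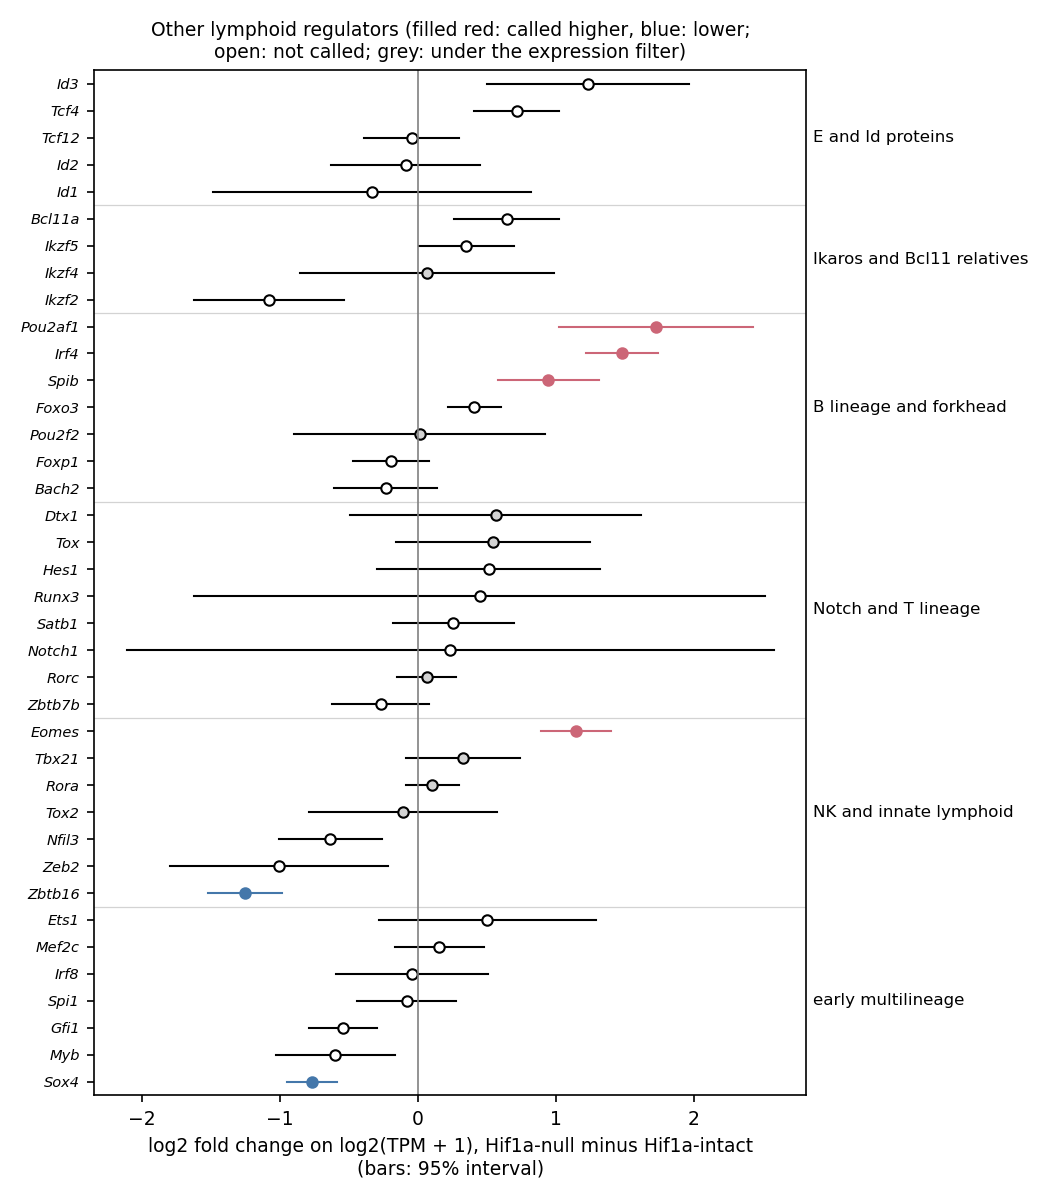
Log2 fold change on the log2(TPM + 1) scale with its 95% interval for 38 other lymphoid regulators by role, from the fit over all genes above 0. Filled points mark the 4 called higher and 2 called lower in the filtered fit; intervals of Notch1 and Runx3 are the widest.

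Genes that the B lineage factors are known to drive were also read. Of 16 B lineage effector genes 11 were tested, and 9 of these were called higher and 0 lower. Of the 9, 8 stayed below 1 TPM in the Hif1a-intact pair and could only differ upward, a class in which 61.8% of all genes were called higher, so the count says little about the list. In the fit without a filter 8 of 16 were called higher, against 2.14% of all genes, and the median log2 difference was 1.86. The 8 below 1 TPM in the Hif1a-intact pair could not reach the filter without Hif1a-null replicate 1 or without replicate 2. Those fits did not test them. Blnk, the adaptor of the pre-B receptor, was the one of the 9 that read at least 1 TPM in every library. It read 1.40 and 1.25 against 18.3 and 15.6 TPM (limma, log2 fold change 2.94, adjusted p = 0.00511). The other 2 tested genes, Cd79b and Cd72, also read at least 1 TPM in every library. Cd79b read 9.97 and 6.12 against 9.44 and 7.91 TPM, and Cd72 4.89 and 2.88 against 3.47 and 1.75 TPM. Both had overlapping groups and were not called (limma, log2 fold changes 0.13 and -0.45, adjusted p = 0.823 and 0.512).

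The recombinase genes Rag1 and Rag2 read 0 and 0 against 2.93 and 3.18 TPM, and 0.198 and 0.287 against 4.90 and 5.28 TPM. The 6 pre-B receptor and recombinase genes together summed to 0.489 and 0.642 TPM in the Hif1a-intact pair and 16.9 and 23.7 TPM in the Hif1a-null pair.

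Of 19 T lineage effector genes 9 were tested, with 4 called higher and 0 lower, where 5.25% and 2.02% of all tested genes were. Of the 4, Cd3g, Cd2 and Thy1 stayed below 1 TPM in the Hif1a-intact pair, the class with 61.8% called higher. In the fit without a filter 2 of 18 were called higher, against 2.14% of all genes, with a median log2 difference of 0.36. Cd3g, Cd2 and Thy1 could not reach the filter without Hif1a-null replicate 1 or without replicate 2, so those fits did not test them. Lck, the kinase at the T cell receptor, read 5.17 and 3.93 against 22.1 and 22.0 TPM (limma, log2 fold change 2.06, adjusted p = 0.0101). Thy1 was listed at 0 and read 0.255 TPM against 3.33 and 2.999 TPM (limma, adjusted p = 0.0128), and Cd2 was listed at 0 and read 0.304 TPM against 2.40 and 2.27 TPM (limma, adjusted p = 0.0219).

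Cd3g, a chain of the receptor complex, was listed at 0 and read 0.294 TPM against 3.36 and 6.87 TPM (limma, adjusted p = 0.0348). Of the 5 receptor complex genes it was the 1 called of 2 tested. Cd3e, named after its values were seen, was listed at 0 and read 0.452 TPM against 0.657 and 0.309 TPM, and Ptcra, the pre-T receptor chain, was listed at 0 in all 4 libraries.

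**Figure D4:**
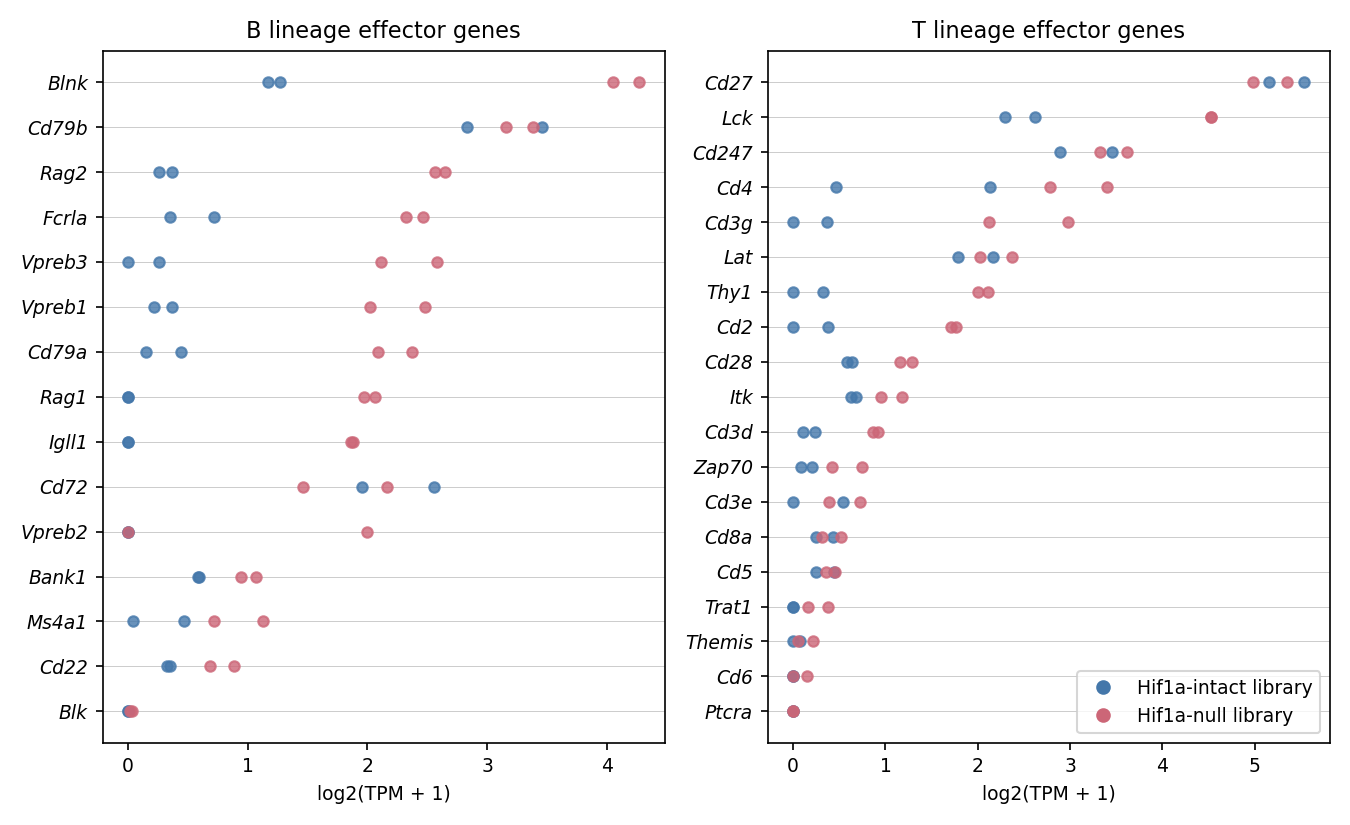
Log2(TPM + 1) of B lineage (left, 15 of the 16) and T lineage (right, all 19) effector genes in each library, ordered by the Hif1a-null mean. Over the whole lists, both Hif1a-null libraries exceeded both Hif1a-intact ones in 13 of 16 B lineage and 10 of 19 T lineage genes, against 23.6% of all genes above 0. Most genes of both lists were below 1 TPM in the Hif1a-intact pair, and that share is not matched for level. Among the genes with overlapping libraries are Cd79b, Cd72, Cd27, Cd247, Cd5 and Cd8a, and Ptcra is at 0.

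Markers of other cells that use these factors moved too, and their part in the values above was not tested. Their counts stand against the same 5.25% higher and 2.02% lower of all tested genes, or 61.8% higher for members below 1 TPM in the Hif1a-intact pair. Lymphoid progenitor markers had 2 of 6 tested members called higher. They were Dntt, the terminal transferase, at 9.41 and 10.2 against 189 and 188 TPM, and Ly6d at 1.52 and 1.53 against 9.32 and 11.4 TPM, and the 7 markers summed to 434 to 450 against 591 to 615 TPM. Il7r, a cytokine receptor gene that Foxo1 is known to switch on, read 0.476 and 1.10 against 2.30 and 1.84 TPM and was not called (limma, adjusted p = 0.143).

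NK cell markers had 6 of 8 tested members called higher, among them Ncr1 (0.283 and 0.0221 against 16.3 and 17.1 TPM) and Il2rb (0.419 and 0.381 against 9.56 and 10.4 TPM), and 4 of the 6 stayed below 1 TPM in the Hif1a-intact pair. The 10 NK markers summed to 192 and 298 against 215 and 233 TPM, a sum that Nkg7 dominated. Nkg7 went the other way without overlap, at 177 and 284 against 122 and 144 TPM, and was not called (limma, adjusted p = 0.213). Of 6 markers of type 2 innate lymphoid cells, which depend on Gata3, Areg, Il5 and Il13 were listed at 0 in all libraries. Il1rl1 was called higher (0.736 and 0.574 against 6.92 and 8.13 TPM) and Il17rb lower (8.19 and 5.52 against 1.39 and 1.19 TPM), and the 6 summed to 6.22 to 9.05 against 8.49 to 9.67 TPM.

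Of 5 plasmacytoid dendritic cell markers 2 were tested, and Siglech was called higher (1.72 and 1.41 against 15.3 and 14.6 TPM). The other, Bst2, read 20.3 and 10.7 against 21.2 and 20.2 TPM, with overlap, and was not called (limma, adjusted p = 0.480). Klk1 was listed at 0, and the 5 summed to 12.1 to 22.1 against 36.0 to 37.5 TPM, with Bst2 as the largest term. Mature B cell markers had 1 of 2 tested members called higher, the light chain gene Igkc (425 and 302 against 2934 and 3063 TPM). The 6 in the table summed to 321 to 475 against 3069 to 3137 TPM, a sum that Igkc dominated. Ighm, the other one tested, was not called (limma, adjusted p = 0.187). In the fit without a filter 5 of the 6 lay above 0 and 1 below, Fcer2a, at 0.837 and 0.594 against 0.425 and 0.227 TPM. All 7 erythroid markers and 7 of 10 granulocyte markers were also called higher, of which 2 erythroid and 0 granulocyte markers stayed below 1 TPM in the Hif1a-intact pair. They summed to 74.2 to 116 against 6455 to 6959 TPM and to 24546 to 27978 against 37628 to 38520 TPM. Higher levels between these groups were thus not limited to lymphoid genes. Stem and progenitor markers summed lower, to 514 and 457 against 398 and 406 TPM. Of these 6, all tested, 1 was called higher and 0 lower, and 1 stayed below 1 TPM in the Hif1a-intact pair. In the fit without a filter 3 lay above 0 and 3 below.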

How the data were processed

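The deposited table gives 1 TPM value per Ensembl gene and library. Per the submitters' processing notes, kallisto made the values, with mm10 as the build. Its version, transcripts and use of strand are details not given in the sources used here. From the library sums the unit was inferred to be TPM: they lie between 955562 and 963135. kallisto divides reads among similar transcripts by estimation, and TPM holds no counts, so depth is unknown and an exact 0 can be a failed estimate.

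Symbols and coordinates came from GENCODE vM21 (GRCm38) by identifier, for 27458 of 28987 genes. Genes that reached 1 TPM in 2 or more libraries were fitted on log2(TPM + 1), Hif1a-null minus Hif1a-intact, two-sided, with limma 3.58.1 (R 4.3.3). Adjustment was Benjamini-Hochberg over all genes tested, with a threshold of 0.05. This scale understates changes of low genes. The script was tested on simulated data. With 2 libraries against 2, no exact permutation test over libraries can pass that threshold. Alternatives changed the pseudocount, filter, variance model and scaling, or left out each library. Protein-coding genes only, and no filter together with a pseudocount of 0.1 or with a library left out, were added after seeing the data.

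The members and lists were chosen with earlier results of these data known. Named were all 10 factors, all E and Id protein genes, Hif1a, Runx1, up to 4 genes of smallest unadjusted p per other list, and genes overlapping or copying a factor. Spib, Sox4, Notch1, Hes1, Satb1, Runx3, Zbtb7b, Cd3e, Cd79b, Cd72, Nkg7 and Fcer2a were named after their values were seen. So were Camp, Kit, Cd34, Klk1, Areg, Il5, Il13 and Ptcra, as levels or zeros. A single B lineage effector gene is counted with its list and not reported by name here.

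Near-identical transcripts were searched with blastn 2.17.0 (95% identity or more, covering 100 bases or more and 50% or more of the shorter one). Promoter windows are RefSeq's, GRCm38.p6. Figures used matplotlib 3.10.9 in Python 3.11.15.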

Additional observations from a re-analysis of the deposited data

How the results depend on the processing

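The number of factors called higher was 3 of 6 tested, 1 of 4 with a mean of at least 1 TPM and 0 of 3 with at least 1 TPM in all libraries, where limma left 1 at an unadjusted p under 0.05. It ranged from 0 to 4 when single libraries were left out. The count called lower was 0 under every alternative run. Without a filter, leaving out any 1 library left 0 calls for the factors, every list and the whole table, with 4 to 5 of 10 factors at an unadjusted limma p under 0.05. In the fit with at least 1 TPM in all libraries, Tcf7, Lef1 and Ebf1 were not tested. With the main filter they also dropped out when Hif1a-null replicate 1 or replicate 2 was left out. The cause of the other changes was not tested, beyond that fewer libraries and other genes enter each fit.

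Of all genes, 625 were called higher and 241 lower. With at least 1 TPM in all libraries these were 203 and 131, without a filter 138 were lower, and without a filter at a pseudocount of 0.1 they were 380 and 78. Single libraries left out gave 0 to 731 higher and 0 to 288 lower. The share of calls that were higher was 72.2%, 60.8% with at least 1 TPM in all libraries and 83.0% without a filter at a pseudocount of 0.1.

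Of the other regulators 4 were called higher and 2 lower. Higher calls were 2 without a filter at either pseudocount, with a mean of at least 1 TPM and under quantile normalization, and 0 with at least 1 TPM in all libraries. Lower calls were 1 at a pseudocount of 0.1 with or without the filter and with a mean of at least 1 TPM, and 0 with at least 1 TPM in all libraries. Leaving out single libraries gave 0 to 3 higher and 0 to 2 lower. B lineage effectors went from 9 to 1 and T lineage effectors from 4 to 1 with at least 1 TPM in all libraries. T lineage effectors were also 2 at a pseudocount of 0.1, without a filter and under quantile normalization, and 1 with no filter and that pseudocount. Leaving out single libraries gave 0 to 9 and 0 to 3.

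Some log2 differences that were not called changed sign. Without Hif1a-intact replicate 1 Gata3 was at -0.19 with no filter, and Tcf12 at 0.075 and Notch1 at -0.16 with and without it. Over the libraries left out, Id1 ranged from -0.81 to 0.14 and Id2 from -0.30 to 0.12, both above 0 only when Hif1a-intact replicate 2 was out. When Hif1a-null replicate 1 was out, Notch1 was at -0.66 and Runx3 at 1.30, and without Hif1a-null replicate 2 Notch1 was at 1.13, Runx3 at -0.40 and Gata3, with no filter, at -0.054. Median-ratio size factors put Tcf12 at 0.017 and quantile normalization put Id2 at 0.015. Of the values of single genes under the alternatives, 751 kept sign and side of the threshold, 216 lost a call, 9 gained one and 16 changed sign.

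No paired analysis was possible because the labels give the groups no shared replicate numbers.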

Other observations

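Among the annotated transcripts, 2 of the 10 factors had a near-identical stretch in another gene. Foxo1 shared one with the antisense gene Gm20402, which was listed at 0 in all 4 libraries, and Pax5 with 5730488B01Rik, which was not analysed here. On either strand 6 factors overlapped 9 other genes of the table, and the highest of these, Gm12000, antisense within Ikzf1, read 1.04 and 0.260 TPM in the Hif1a-intact pair and 1.96 and 0.4996 TPM in the Hif1a-null pair. The strand setting is not given in the sources used here. Overlap was read from gene spans and not exons, and whether reads of such a pair can be told apart was not tested. Gm12000 stayed far below Ikzf1.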
